A study of Mus musculus with 6 samples.

Results

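The colony-stimulating factors and their receptors comprise 8 genes, found by symbol in the deposited gene tables, which list 24147 genes or gene copies. There are 4 ligands, Csf3, Csf2, Csf1 and Il34, and 4 receptor genes, Csf3r, Csf2ra, Csf2rb and Csf1r, and each stood on a single line. They were measured by RNA sequencing in a mouse model of cataract surgery, in which the fiber cells are taken out of the lens of a living animal and the capsule stays behind with its epithelial cells. The groups are lens capsules with attached epithelial cells from wild-type C57BL/6 mice, aged 2 months, taken 24 h after the operation (24 h, 3 libraries) or at once after it (0 h, 3 libraries). All animals of both groups were operated on, so there is no unoperated eye to compare with. The submitters call the libraries biological triplicates; the sources used here do not say how many eyes or animals each one pools, so that p-values measure the spread between these libraries.

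These cytokines govern the making, survival and activity of myeloid cells. Granulocyte colony-stimulating factor, the product of Csf3, acts through a receptor made of a pair of Csf3r products and is the main growth signal of neutrophils. Granulocyte-macrophage colony-stimulating factor, encoded by Csf2, is bound by an alpha subunit (Csf2ra) that pairs with a signalling beta subunit (Csf2rb), which the receptors for IL-3 and IL-5 share. Macrophage colony-stimulating factor (Csf1) and IL-34 have unrelated sequences but bind the same receptor tyrosine kinase, Csf1r, on which tissue macrophages and microglia depend. Epithelial and stromal cells can make the ligands when stimulated by IL-1, TNF or bacterial products, while the receptors are found mostly on myeloid cells.

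Summed gene counts ran from 8069314 to 10862573 per library, so that 3 counts, taken here as the floor of detection, equal 0.301 to 0.384 CPM (counts scaled to the TMM-corrected size of the library). Lens markers were abundant in all libraries, with the crystallin gene Cryaa at 46170 ± 4955 CPM at 24 h and 88070 ± 22743 CPM at 0 h (SD, n = 3 each, not called), but many were lower at 24 h. All 9 lens fiber markers and 4 of 7 lens epithelium markers were lower, among them Foxe3, a transcription factor of lens epithelium (28.3 ± 6.08 CPM at 24 h, 83 ± 20 CPM at 0 h). Other tissue of the eye was present as well, since 6 photoreceptor markers summed to 1014 to 4565 CPM at 24 h and 1889 to 5757 CPM at 0 h, and 7 pigment epithelium markers to 53.4 to 678 CPM at 24 h and 131 to 268 CPM at 0 h. Of the pigment markers Rgr, Rpe65 and Lrat were 16.7-fold to 55.6-fold lower, while Pmel and Mlana were higher with libraries that overlapped. Tyr and Tyrp1 were not called. Rpe65 and Lrat passed the low-count filter only through 0 h and Mlana only through 24 h, and Lrat had 5 counts at 24 h. The part of these shifts in the changes below was not tested. Of 13956 genes that passed the low-count filter, 28.2% differed between the times at an adjusted p under 0.05 in edgeR's quasi-likelihood test, 15.2% higher and 13% lower at 24 h. The number of genes called lower was 1817, and 1041 without 0 h replicate 3. The same filter let 7 of the 8 members through. Csf2 did not pass it, and Csf3 and Csf2rb passed only through their counts at 24 h. Of the 7 tested members, 4 were higher (Csf3, Csf1, Csf3r and Csf2rb), 1 was lower (Csf1r) and 2 were not called (Il34 and Csf2ra). The libraries of the times were apart for 5 members upward and for 1 downward (Il34). The 5 include Csf2, which was not tested and had 2 counts in 24 h replicate 3. Of the genes tested 22.9% were apart upward and 21.8% downward, 44.7% in all. In bulk tissue, fewer cells of a type and less RNA per cell cannot be told apart.

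**Figure D1:**
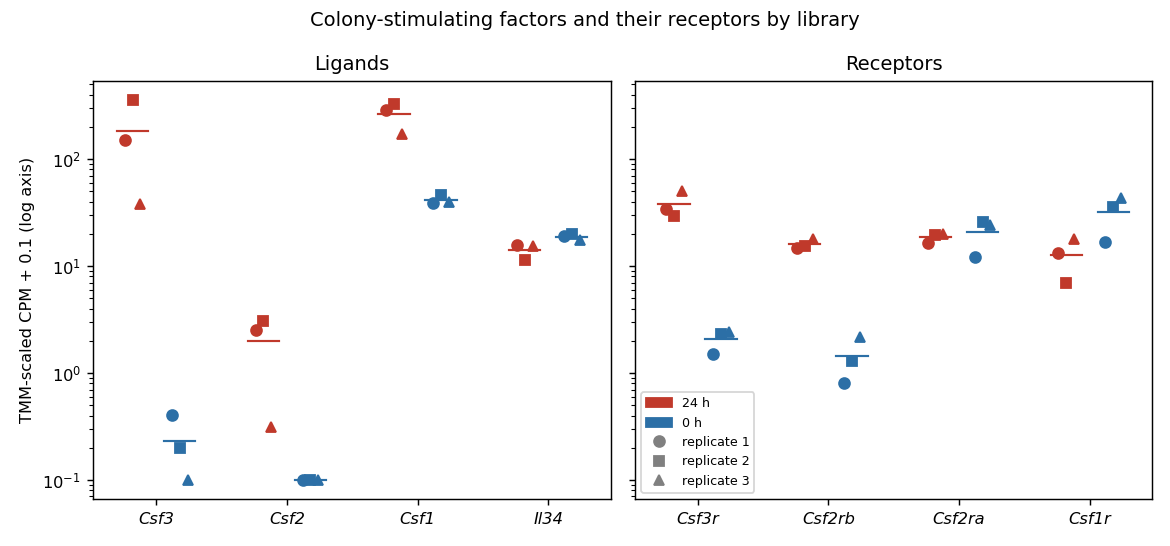
TMM-scaled CPM plus 0.1, on a log axis, of the 4 ligands (left) and 4 receptors (right) in each library; red symbols are 24 h libraries, blue symbols 0 h libraries, shapes mark the replicate and bars the group mean. Csf3, Csf1, Csf3r and Csf2rb lie higher in every 24 h library than in any 0 h library, while Csf2ra and Csf1r overlap between the times.

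Csf3, the neutrophil growth factor (chromosome 11, 98701313 to 98703629, mm10), was nearly silent in the fresh tissue and abundant a day later. It had 1170, 3350 and 360 counts in 24 h replicates 1 to 3, against 3, 1 and 0 counts in 0 h replicates 1 to 3. Scaled to library size these are 150, 356 and 38.1 CPM at 24 h and 0.301, 0.1 and 0 CPM at 0 h. The groups were far apart, and the 24 h libraries themselves differed widely, with replicate 2 highest and replicate 3 lowest. Csf3 rose by 10.19 ± 1.15 on the log2 scale (SE; 95% interval 7.57 to 12.80; adjusted p = 0.000491), rank 2 among all genes tested. From the summed counts, 4880 at 24 h and 4 at 0 h, the ratio was 1287 with an exact 95% counting interval of 502 to 4725. The call was lost with limma-voom (adjusted p = 0.0744, the highest of 15 alternatives). Leaving out 0 h replicate 1 gave a log2 fold change of 11.39, and leaving out 24 h replicate 2 gave 9.24.

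Csf2, which acts on granulocytes and macrophages (chromosome 11, 54247270 to 54249899), was detected in the 24 h group alone, at a low level. It had 19, 28 and 2 counts in 24 h replicates 1 to 3 and 0 counts in all 3 libraries at 0 h. Replicates 1 and 2 at 24 h reached 2.43 and 2.97 CPM, and replicate 3, at 0.211 CPM, lay under the floor. Set against 3 counts over the whole 0 h group, the summed 24 h counts of Csf2, scaled to library size, were 17.2-fold higher. This reference lies below a floor of 3 counts in each library. The ratio takes no account of counting error or of the spread between the 24 h libraries. That ratio was 11.4 without 24 h replicate 2, 25.6 without 24 h replicate 3, and 11.1, 11.1 and 12.2 without 0 h replicates 1, 2 and 3. Without the low-count filter Csf2 was called higher (adjusted p = 0.0120), and DESeq2 called it as well (adjusted p = 0.000514). It was not called when 0 h replicate 1, 2 or 3 was left out (adjusted p = 0.0624, 0.0542 and 0.0545). Csf2 followed Csf3 in the order of the 24 h libraries, with replicate 2 highest and replicate 3 lowest for both.

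Csf2 and Csf3 messenger RNAs are textbook examples of transcripts with AU-rich elements, repeats of ATTTA in the 3' untranslated region through which proteins such as ZFP36 hasten their decay. The stretch of 30 bases richest in ATTTA is shown for each ligand to show how the ligands differ in this feature. Bases are given 5' to 3' along the transcript (GENCODE M21, GRCm38) and each ATTTA is in capitals.
Csf2 (chr11:54247329-54247358, minus strand): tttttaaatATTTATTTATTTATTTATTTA
Csf3 (chr11:98702984-98703013, plus strand): gatagtttATTTAtctctATTTAatATTTA
Csf1 (chr3:107741109-107741138, minus strand): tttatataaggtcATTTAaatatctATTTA
Il34 (chr8:110741845-110741874, minus strand): tggttcctttttctattaaatggccATTTA
In Csf2 the pentamers overlap end to end, 5 of them in the stretch shown, and Csf3 has 3 separate ones. Over the whole 3' untranslated region Csf2 has 9 in 317 bases, or 28.4 per kilobase, a density reached by 0.0402% of 19921 genes with a region of at least 100 bases. Csf3 has 6 in 669 bases, or 8.97 per kilobase, reached by 1.19% of those genes. The density was 1.89 per kilobase in Csf1, 1.65 in Il34 and 1.80 in Csf1r, near the median gene (1.35). Csf2ra, Csf2rb and Csf3r have none. A match describes the sequence, and the stability of these transcripts was not measured.

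Csf1, the macrophage growth factor (chromosome 3, 107741048 to 107760469), was already present at 0 h and rose by a smaller factor. It stood at 286, 325 and 171 CPM in 24 h replicates 1 to 3, against 38.3, 46.1 and 39.3 CPM in 0 h replicates 1 to 3. All 24 h libraries lay above all 0 h libraries, and 24 h replicate 3 was again the lowest of its group. Csf1 rose 6.33-fold (log2 fold change 2.66 ± 0.24 SE, 95% interval 2.11 to 3.22, adjusted p = 0.000192).

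The table of RefSeq promoters (GRCm38.p6) matched 4 of the 8 members, Csf1, Csf2, Csf2ra and Csf3r. The 250 bases before the start of Csf1 are shown because they hold a match to the NF-kB motif, the binding site of the transcription factor that IL-1 and TNF activate, in capitals at bases -154 to -145 and on the minus strand of the gene.
Csf1 promoter (chr3:107760470-107760719, minus strand): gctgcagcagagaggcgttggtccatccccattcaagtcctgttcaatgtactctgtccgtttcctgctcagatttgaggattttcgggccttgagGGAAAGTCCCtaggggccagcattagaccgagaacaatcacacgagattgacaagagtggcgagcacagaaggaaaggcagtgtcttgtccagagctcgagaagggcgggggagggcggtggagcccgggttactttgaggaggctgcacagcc
Both strands were searched, and 3.9% of 32851 promoters of the same length hold the NF-kB motif. The AP-1 motif TGANTCA (6.75% of promoters) and the cytokine element core GAGATTC (2.56%) had no match in these windows of the 4 members. For Csf2 the window (chr11:54249900-54250149, minus strand) lies upstream of the start that GENCODE gives, base 54249667. The bases between were not searched, so a missing match there does not describe the sequence next to that start. The motif TTGNNNAA, of the C/EBP type, matched in Csf2 and in Csf2ra, and 33.3% of promoters hold it.

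Il34, the other ligand of the macrophage receptor (chromosome 8, 110741829 to 110805924), did not rise. It had 15.5, 11.2 and 15.1 CPM in 24 h replicates 1 to 3, against 18.8, 19.6 and 17.4 CPM in 0 h replicates 1 to 3. Every 24 h library was below every 0 h library, a pattern that 21.8% of all genes tested showed in that direction. The difference did not pass the test (log2 fold change -0.42 ± 0.20 SE, 95% interval -0.88 to 0.03, adjusted p = 0.150).

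Per transcript length, Csf1 and Il34 stood close together in the fresh tissue and far apart a day later. The ratio of Csf1 to Il34, in RPKM (counts scaled to gene length and library size), was 7.77, 12.3 and 4.77 in 24 h replicates 1 to 3 and 0.854, 0.987 and 0.947 in 0 h replicates 1 to 3. The mean log2 ratio was 2.94 ± 0.68 at 24 h and -0.11 ± 0.11 at 0 h (SD, n = 3 each), a difference of 3.05. The exact two-sided permutation p was 0.1, which is the lowest value that 3 against 3 libraries allow, and 0.1 after adjustment over 3 ratios. The summed level of both ligands of Csf1r was 70.7, 87.0 and 48.0 RPKM at 24 h and 17.3, 22.3 and 17.1 RPKM at 0 h.

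The make-up of the ligand pool therefore differed by time. Csf3 held 59.3%, 76.0% and 37.2% of the summed ligand RPKM in 24 h replicates 1 to 3, and 1.16%, 0.349% and 0% in 0 h replicates 1 to 3. Il34 held 4.50%, 1.75% and 10.8% at 24 h, against 53.3%, 50.2% and 51.4% at 0 h. Csf1 held 34.9%, 21.4% and 51.7% at 24 h and 45.5%, 49.5% and 48.6% at 0 h, so that its share at 24 h overlapped its share at 0 h although its level did not. Csf2 held at most 1.27% in any library.

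**Figure D2:**
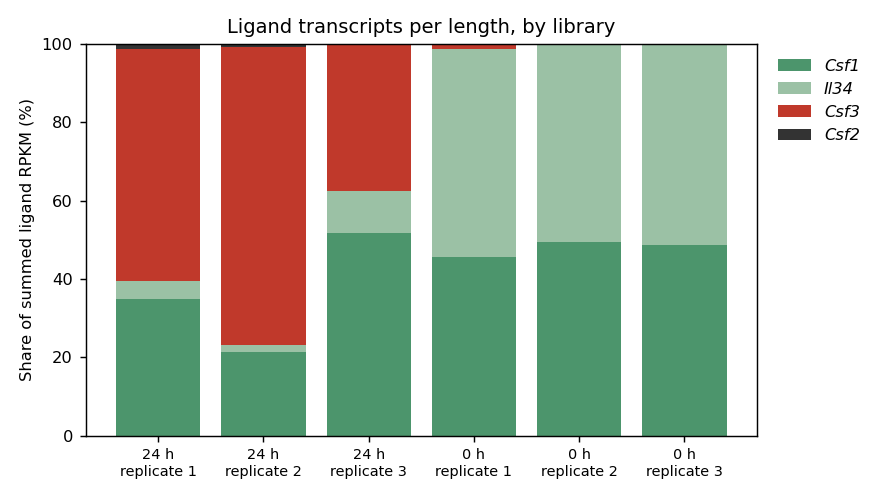
Share of the summed RPKM of the 4 ligands (vertical axis, %) held by each ligand in each library, 24 h libraries at the left and 0 h libraries at the right. Csf1 and Il34 split the pool at 0 h, and Csf3 takes 37.2% to 76.0% of it at 24 h.

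Among the receptors, Csf3r, through which neutrophils receive the Csf3 signal (chromosome 4, 126024659 to 126044975), showed the largest change. It had 33.6, 29.4 and 49.7 CPM in 24 h replicates 1 to 3, against 1.4, 2.20 and 2.32 CPM in 0 h replicates 1 to 3. The groups did not overlap, and here 24 h replicate 3, the library lowest in Csf3, was the highest. Csf3r rose 19.0-fold (log2 fold change 4.25 ± 0.30 SE, 95% interval 3.56 to 4.94, adjusted p = 6.16e-05).

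Neutrophil markers moved with Csf3r. The list of 18, of which 17 were found, summed to 85.4, 128 and 179 CPM in 24 h replicates 1 to 3 and 7.72, 15.1 and 15.4 CPM in 0 h replicates 1 to 3. Of these 17 genes 10 did not pass the filter, 6 were called higher and 1 was not called. Of the 6 higher genes 5 passed only through their counts at 24 h. The filter thus favoured genes higher at 24 h, and the number called is not separate support. The 5 include the integrin gene Itgam (37.3 ± 20.6 CPM at 24 h, 3.70 ± 3.17 CPM at 0 h). The chemokine receptor gene Cxcr2 (25.3 ± 8.58 CPM at 24 h, 5.80 ± 2.31 CPM at 0 h), also called higher, passed in both groups. The log2 fold change of Itgam was 3.36, and 4.27 without 0 h replicate 3. Of the 17 genes 5 had 0 counts at 0 h. Genes of immature granules were at or near 0 at both times: Elane had 0 counts in all libraries, and Mpo had 3 counts at 24 h and 1 count at 0 h. Markers of all leukocytes summed to 85 to 173 CPM at 24 h and 21.3 to 52.2 CPM at 0 h. Of these 8 markers 6 were higher, beside 15.2% of all genes tested, and 2 of the 6 passed the filter only through 24 h. The actin bundler gene Lcp1, 1 of the 6, was at 37.9 ± 19.6 CPM at 24 h and 7.61 ± 3.9 CPM at 0 h. Laptm5, a lysosomal protein gene of blood cells, was not called (16.3 ± 9.77 CPM at 24 h, 12.8 ± 5.44 CPM at 0 h, adjusted p = 0.606). The part of these cells in the Csf3r result was not tested.

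Csf2rb, the signalling beta subunit (chromosome 15, 78325990 to 78351001), rose, while its alpha partner was not called. Csf2rb had 14.7, 15.4 and 17.8 CPM in 24 h replicates 1 to 3, against 0.701, 1.2 and 2.07 CPM in 0 h replicates 1 to 3. The 24 h libraries lay close together and well above the 0 h libraries, a 12.1-fold rise (log2 fold change 3.60 ± 0.38 SE, 95% interval 2.73 to 4.47, adjusted p = 0.000373). Csf2ra, which binds the Csf2 product (chromosome 19, 61224402 to 61228418), had 16.4, 19.4 and 19.9 CPM at 24 h, within the range of the 12.1, 25.5 and 24.3 CPM at 0 h. Its log2 fold change was -0.15 ± 0.28 (SE, 95% interval -0.79 to 0.49, adjusted p = 0.733), an interval that leaves room for a moderate change either way.

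In RPKM the ratio of beta to alpha subunit was 0.349, 0.307 and 0.347 in 24 h replicates 1 to 3 and 0.0224, 0.0183 and 0.0331 in 0 h replicates 1 to 3. The alpha subunit transcript therefore stayed the more abundant of the pair at both times. The log2 ratio was higher by 3.74 at 24 h (exact permutation p = 0.1, adjusted p = 0.1, again the lowest that can be had).

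Csf2rb has a neighbouring near copy, Csf2rb2, which in the mouse encodes a beta subunit for IL-3 alone. Of the 50-base words of the longest Csf2rb transcript 18.4% occur unchanged in that of Csf2rb2, so the split of reads between the copies is uncertain. Csf2rb2 had 7.55, 8.92 and 9.41 CPM in 24 h replicates 1 to 3 and 0.200, 1.10 and 1.34 CPM in 0 h replicates 1 to 3, a 9.81-fold rise (log2 fold change 3.29 ± 0.55 SE, adjusted p = 0.00295). The counts of both copies were higher, and a rise of one copy alone cannot be told apart from a rise of both.

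Csf1r, the receptor of Csf1 and IL-34 (chromosome 18, 61105572 to 61131139), was the member that fell. It had 13, 6.8 and 17.8 CPM in 24 h replicates 1 to 3, against 16.7, 35.9 and 43.1 CPM in 0 h replicates 1 to 3. The groups overlapped, because 0 h replicate 1 was below 24 h replicate 3. Csf1r fell 2.54-fold (log2 fold change -1.34 ± 0.41 SE, 95% interval -2.29 to -0.40, adjusted p = 0.0406). The call was lost with limma-voom (adjusted p = 0.0587), against a 1.5-fold change (adjusted p = 0.149), and when replicate 2 or 3 of the 0 h group (0.104 and 0.147) or replicate 1 or 2 of the 24 h group (0.094 and 0.0974) was left out. The direction was downward in all of these, and the adjusted p ran from 0.00701 to 0.149 over 15 alternatives.

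Monocyte and macrophage markers, in contrast, did not move one way. The 19 markers summed to 119 to 230 CPM at 24 h and 116 to 212 CPM at 0 h, and of 16 tested 2 were higher and 3 lower. Over all genes tested 15.2% were higher and 13% lower, so these counts are near the shares of all genes. The 2 higher, named after their values were seen, were Cd68, a lysosomal protein of phagocytes (34.4 ± 5.31 CPM at 24 h, 5.91 ± 2.13 CPM at 0 h), and Ccr2, a receptor of blood monocytes, which had 21.0 CPM in 24 h replicate 3 and at most 2.23 CPM in the other two 24 h libraries, against 0.301 to 0.488 CPM at 0 h. The 3 lower, also named afterwards, are genes often used to mark resident macrophages: Cx3cr1 (4.71 ± 0.830 CPM at 24 h, 12.9 ± 2.36 CPM at 0 h), Cd163 (1.56 ± 0.708 and 7.15 ± 2.11 CPM at 24 h and 0 h) and Mrc1 (6.64 ± 4.92 and 24.9 ± 14.5 CPM at 24 h and 0 h). Lyz2, the lysozyme gene of myeloid cells and among the most abundant markers, was not called (29.5 ± 17.6 CPM at 24 h, 16.3 ± 4.13 CPM at 0 h, adjusted p = 0.142), although it was called higher without 24 h replicate 2 (adjusted p = 0.0488). Ccr2 passed the filter only through 24 h and Cd163 only through 0 h. The higher count was 1 without any one of the 0 h libraries. Within the 24 h group and within the 0 h group, the library highest in Csf1r was also the highest in the summed markers. The part of macrophage number in the fall of Csf1r was not tested. In GENCODE Csf1r also shares 873 exon bases with Hmgxb3 on the opposite strand, Csf2 shares 96 with the antisense RNA Gm12223, and Il34 shares 22 and 75 with Gm15894 and Gm15895. How strand was handled is not known here, so reads of those stretches cannot be told apart.

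**Figure D3:**
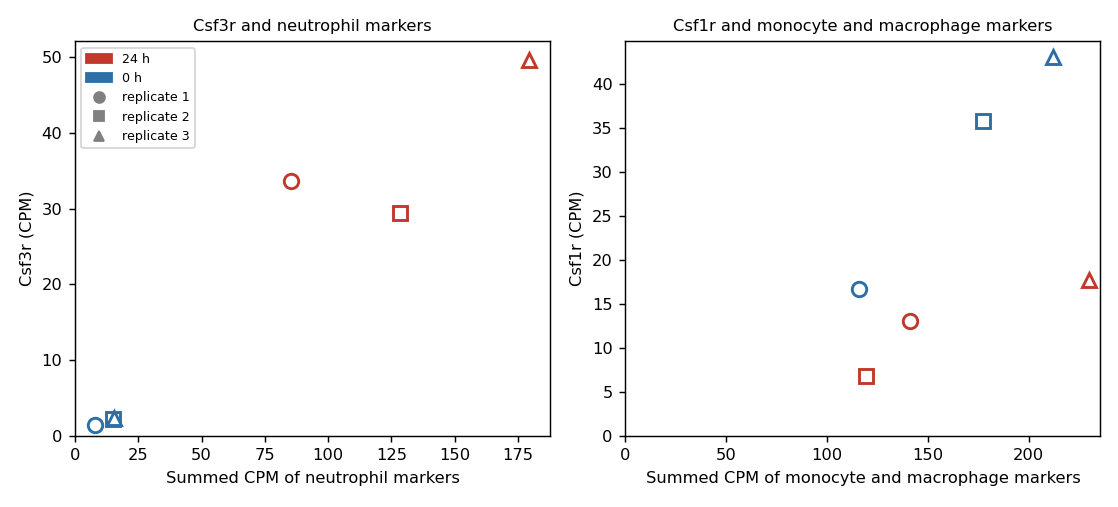
CPM of Csf3r against the summed CPM of neutrophil markers (left) and of Csf1r against the summed CPM of monocyte and macrophage markers (right), a point for each library, red at 24 h and blue at 0 h. Csf3r and the neutrophil markers separate the times, whereas the macrophage marker sums of the times overlap.

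The balance of the receptors for neutrophil and macrophage growth factor turned over. In RPKM the ratio of Csf3r to Csf1r was 2.47, 4.14 and 2.68 in 24 h replicates 1 to 3, against 0.0803, 0.0588 and 0.0515 in 0 h replicates 1 to 3. Csf3r was therefore the more abundant of the pair in all 24 h libraries and Csf1r in all 0 h libraries. The mean log2 ratio was 1.59 ± 0.40 at 24 h and -3.96 ± 0.33 at 0 h (SD, n = 3 each), a difference of 5.55 (exact permutation p = 0.1, adjusted p = 0.1, again the lowest that can be had).

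Ordered by mean RPKM at 24 h, the members ran Csf3, Csf1, Csf2ra, Csf3r, Il34, Csf2rb, Csf1r and Csf2. Csf1 (39.7 to 80.4 RPKM) was clear of Csf2ra (8.58 to 11.5 RPKM) and Il34 (6.56 to 8.32 RPKM) of Csf2rb (2.99 to 3.81 RPKM), whereas all other neighbours in that order overlapped, Csf3 (28.6 to 285 RPKM) and Csf1 included. At 0 h the order was Csf2ra, Il34, Csf1, Csf1r, Csf3r, Csf2rb, Csf3 and Csf2. Only Csf1r (3.97 to 10.4 RPKM) and Csf3r (0.318 to 0.578 RPKM) were apart as neighbours there, so that 4 members made an upper class and 4 a lower one.

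**Figure D4:**
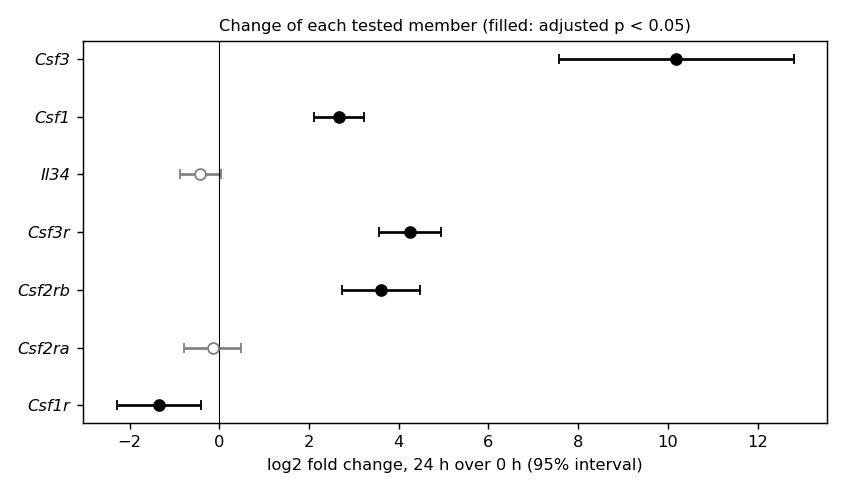
Log2 fold change, 24 h over 0 h, of the 7 tested members with 95% intervals (horizontal axis); filled symbols passed an adjusted p under 0.05. The interval is widest for Csf3 (7.57 to 12.80), and those of Il34 and Csf2ra include 0.

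Members were also compared with all 13956 genes tested for likeness of pattern, as the root mean squared difference of centred log2 CPM over the 6 libraries, a description that the shared difference between times largely sets. Csf3 was most like Cxcl1 (0.79), Ptgs2 (0.84) and Plaur (0.85), which encode a neutrophil chemokine, the inducible cyclooxygenase and the urokinase receptor. Ptgs2 had 165, 358 and 65.3 CPM in 24 h replicates 1 to 3, the same order as Csf3, and 0.301, 0.802 and 0.732 CPM in 0 h replicates 1 to 3. Csf1 was most like Nfkbia (0.11), the gene of an NF-kB inhibitor, which had 153, 170 and 90 CPM at 24 h and 18.3, 21.7 and 16.7 CPM at 0 h, followed by Glis3 and Fbxl13 (0.13 each). Csf3r was most like Treml2 (0.17), a receptor gene of myeloid cells, Tgm2 (0.23) and Fgl2 (0.25). Csf2rb was most like Gcnt1 (0.14), Lrrc15 (0.26) and Crispld2 (0.29). The nearest genes were Ddx26b (0.16), 4632428C04Rik (0.17) and Adamts10 (0.19) for Csf1r, Ccdc174 (0.03), Pi4ka and Bivm (0.05 each) for Il34, and Dffb (0.07) and Gcfc2 (0.09) were among them for Csf2ra.

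The genes around these cytokines were counted in 4 lists, beside a median log2 fold change of -0.03 over all genes tested. Of all genes tested 15.2% were higher and 13% lower. Genes that respond to colony-stimulating factors or damp their signal were mostly higher: 13 of 17 tested, out of 18 listed, were higher and none lower, with a median of 2.32. Socs3, which blocks signalling from Csf3r, averaged 192 ± 7.77 CPM at 24 h and 10.3 ± 2.40 CPM at 0 h, an 18.5-fold rise (adjusted p = 1.13e-05). The survival kinase gene Pim1 rose 5.76-fold to 38.6 ± 4.76 CPM, and Myc, a driver of growth, 8.26-fold to 43.6 ± 9.24 CPM. Egr2, a factor of macrophage differentiation, had 418 counts at 24 h against 1 count at 0 h, which is a ratio of 441 (exact 95% counting interval 78.7 to 17456). Its fitted log2 fold change was 8.32, and 10.15 without 0 h replicate 1. Cebpe, a factor of late granulocyte maturation, had 0 counts in all libraries. The lower count was 1 with DESeq2, limma-voom or the replicate block. Of the 13 higher genes 5 passed the low-count filter only through their 24 h counts, Egr2 among them.

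Genes that induce the ligands or control their transcripts were higher in 17 of 19 tested, out of 20 listed, and lower in none, with a median of 1.80. Il1b, an inducer of Csf3, had 33.2 ± 4.68 CPM at 24 h, against 1.11 ± 0.109 CPM at 0 h, a 29.7-fold rise (adjusted p = 1.24e-05). Nfkb1, a subunit of NF-kB, rose 3.20-fold to 98 ± 8.97 CPM. The ribonuclease gene Zc3h12a rose 8.61-fold to 28.3 ± 2.1 CPM, and Zfp36l1, which encodes an AU-rich element binder, 5.35-fold to 161 ± 30.7 CPM. Rc3h1, another gene of mRNA decay, was not called (84.6 ± 3.75 CPM at 24 h, 100.6 ± 9.56 CPM at 0 h, adjusted p = 0.184), and it was named after its values were seen. Of the 17 higher genes 3 passed the low-count filter only through their 24 h counts, Il1b among them. Il17a, another inducer, had 0 counts in all libraries.

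Of the 26 genes of receptor signalling, all tested, 10 were higher and 1 lower, with a median of 0.26. Stat3, the transcription factor activated by Csf3r, had 286 ± 14.4 CPM at 24 h, against 165 ± 11.9 CPM at 0 h, a 1.74-fold rise (adjusted p = 0.00326). The Src family kinase genes Lyn and Fgr, of which Fgr is mostly myeloid, rose, Lyn 3.47-fold. Fgr had 189 counts at 24 h against 5 at 0 h, a ratio of 39.9 (exact 95% counting interval 16.8 to 124). Its log2 fold change was 5.20, and 6.66 when 0 h replicate 2 was left out. Fgr, alone of the 10 higher genes, passed the low-count filter only through its 24 h counts. Plcg2, a phospholipase gene, rose 3.03-fold. Other higher genes included Jak1, Jak2, Tyk2, Stat5a and Src, and the lower one was the adaptor gene Gab1, all named after their values were seen. Against a 1.5-fold change 4 were higher and 0 lower, and Stat3 was not called (adjusted p = 0.138). Pan-leukocyte markers were higher at 24 h too, and their part in these lists was not tested.

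In the list of related cytokines and receptors 9 of 15 genes were tested, and 2 of them were higher and 2 lower, with a median of 0.01. So few genes do not set this list apart from the 15.2% higher and 13% lower of all genes tested. Besides Csf2rb2, Kitl, the ligand of the stem cell factor receptor, was higher (13.3 ± 2.34 CPM at 24 h, 3.94 ± 2.46 CPM at 0 h, adjusted p = 0.0297). Its receptor gene Kit was lower (7.63 ± 4.59 CPM at 24 h, 18.6 ± 3.86 CPM at 0 h, adjusted p = 0.0390), as was Epor, the erythropoietin receptor gene (1.39 ± 0.777 CPM at 24 h, 4.70 ± 0.526 CPM at 0 h, adjusted p = 0.0324). Il3 and Epo had 0 counts in all libraries. Csf2rb2 and Kitl passed the filter only through 24 h and Epor only through 0 h. The higher count was 1 when 0 h replicate 1 or either replicate 1 or replicate 3 of the 24 h group was left out. The lower count was 0 without any one of the 0 h libraries or without 24 h replicate 2, and 1 without 24 h replicate 3. Sdc1 and Ptprz1, whose products also bind IL-34, were not called (adjusted p = 0.346 and 0.991).

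**Figure D5:**
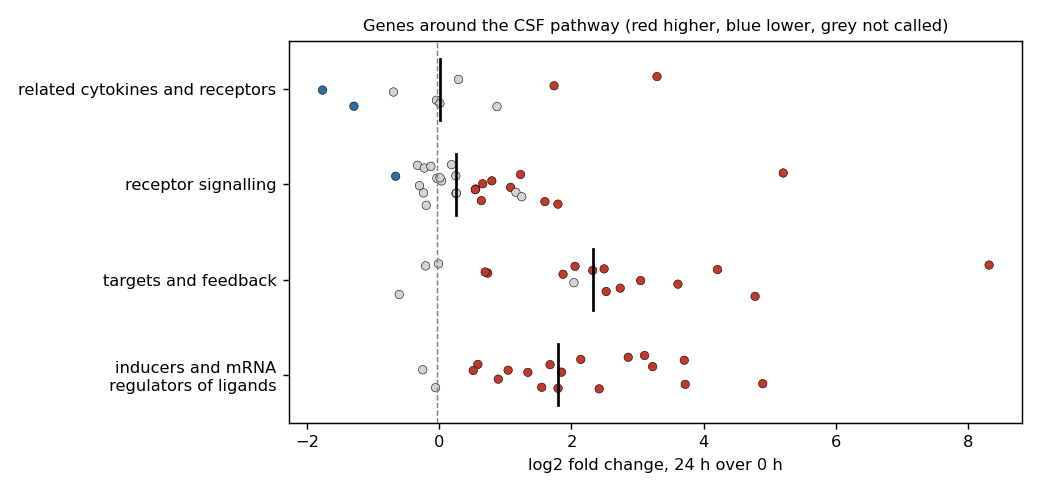
Log2 fold change, 24 h over 0 h (horizontal axis), of the tested genes in 4 lists around the colony-stimulating factors, a point for each gene; bars mark list medians and the dashed line the median of all genes tested. Response genes (median 2.32) and inducers (1.80) lie to the right, and signalling genes (0.26) and related receptors (0.01) near the line.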

How the data were processed

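RNA of 6 libraries was sequenced, per the labels, and the authors deposited read counts, which are whole numbers, and RPKM values for each gene and library. The submitters' processing notes name HTSeq 0.6.1p1, TopHat2 2.1.0, SAMtools 1.4 and Trim Galore 0.4.4, with mm10 as the build. The sources used here do not give the annotation, the strand setting or the treatment of reads that map to several genes. The deposited RPKM values equal the count divided by the deposited gene length and the library's summed counts, and they were used here to compare levels between genes.

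Genes were filtered with filterByExpr, scaled by TMM and compared without covariates by the two-sided quasi-likelihood test of edgeR 4.0.16 in R 4.3.3, with Benjamini-Hochberg adjustment over all 13956 genes tested and a threshold of 0.05. Where no other tool is named, an adjusted p is from it. CPM values are TMM-scaled, SEs of log2 fold changes are the log2 fold change over the root of F, and the counting intervals cover counting error only. Ratios between members were formed in each library from counts per kilobase with 0.5 count added, and compared over libraries by a two-sided exact permutation test. Alternatives were other scalings, other filters, DESeq2 1.42.0, limma-voom (limma 3.58.1), a test against a 1.5-fold change, a replicate block and each library left out in turn. The procedure was tested on simulated counts.

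The members and the 14 gene lists were chosen with earlier results of these data known. The naming rule took all members, the 4 genes with the lowest p in each pathway list, the 2 most abundant genes of each marker list, and the 3 genes most alike to each tested member; a few genes that it took are not reported here. Of 172 listed genes 171 were found, some under an older symbol. Promoters are from RefSeq (GRCm38.p6), and 3' untranslated regions from GENCODE M21 on GRCm38, the assembly that mm10 is.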

Additional observations from a re-analysis of the deposited data

How the results depend on the processing

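Over 15 alternatives each, Csf1, Csf2rb and Csf3r kept their direction and their call, with log2 fold changes of 2.47 to 2.89, 3.32 to 4.07 and 4.0 to 4.40 when a library was left out. Csf3 was not called with limma-voom (log2 fold change 9.75), and ranged from 9.24 to 11.39 with a library left out. Csf1r was not called with limma-voom (-1.33) or against a 1.5-fold change (-1.34), and ranged from -1.69 to -1.04 with a library left out. Csf2ra turned positive without 0 h replicate 2 (0.030) or 0 h replicate 3 (0.0044), within a range of -0.39 to 0.030. Laptm5 turned negative without 24 h replicate 3 (range -0.26 to 0.71 with a library left out). The ratio of Csf2 to 3 counts over the 0 h group ran from 11.1 to 25.6. Against a 1.5-fold change the related receptors counted 1 higher and 0 lower and the signalling genes 4 higher and 0 lower, and the related receptors ran from 1 to 2 higher and 0 to 2 lower with a library left out. The response genes counted 1 lower with DESeq2, limma-voom or the replicate block, and the stroma and endothelium genes 1 lower with the block. Over all genes 1551 to 1897 were higher and 1041 to 1648 lower with a library left out, and 1060 and 629 against a 1.5-fold change. Kitl, Kit and Epor each lost their call against a 1.5-fold change. The causes were not tested.

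Correlations of same-numbered deviations from the group means were 0.087, 0.215 and 0.397. Those of differently numbered libraries ran from -0.350 to 0.172. Whether replicate numbers pair the samples cannot be settled with 3 libraries a group. With the replicate block Csf3 was at 10.22, Csf1r at -1.34, and the exact paired permutation p of each ratio was 0.25, the smallest possible for 3 pairs. At this depth Csf2 cannot be measured in 24 h replicate 3, nor Csf3 be told from 0 in single 0 h libraries.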

Other observations

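Markers of other cells that can make or answer colony-stimulating factors were scarce. Of 7 genes of mast cells, basophils and eosinophils none passed the low-count filter, and together they summed to 0.106 to 1.16 CPM at 24 h and 0 to 0.802 CPM at 0 h. Of these genes Cpa3 and Ms4a2 had 0 counts in all libraries. T cell markers summed to 2.11 to 4.57 CPM at 24 h and 1.70 to 4.15 CPM at 0 h. Of their 6 genes Lck alone passed the filter and was not called (adjusted p = 0.408), and Cd3g had 0 counts in all libraries.

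Endothelial genes were measured as well. Cdh5, the cadherin of vessel walls, averaged 8.29 ± 4.47 CPM at 24 h, against 0.623 ± 0.415 CPM at 0 h. Pecam1 averaged 5.62 ± 1.19 CPM at 24 h, against 1.16 ± 0.879 CPM at 0 h (SD, n = 3 each). Both were called higher by edgeR's quasi-likelihood test (adjusted p = 0.00253 and 0.0197), and both passed the low-count filter only through 24 h. Kdr, a receptor gene of vessel walls, lay the other way and missed the threshold (11.8 ± 6.91 CPM at 24 h, 24.9 ± 12.8 CPM at 0 h, adjusted p = 0.145). Of the 4 tested genes of stroma and endothelium 2 were called higher and 0 lower, beside 15.2% and 13% of all genes tested. The higher count was 1 against a 1.5-fold change and when replicate 1 of either group was left out, and the lower count was 1 without 0 h replicate 3. These genes were named after their values were seen.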
